A study of Drosophila sechellia with 6 samples.

Results

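The 5 X-linked candidate genes are *l(1)sc* (GM19063), *CG15740* (GM13042), *CG1368* (GM17654), *CG9672* (GM13371) and *TwdlY* (GM13463), 5 of the 17275 entries of the expression table and of its 16368 protein-coding entries. The study picked them because they passed its test between control and octanoic acid (OA) food and because their *D. melanogaster* orthologs lie under X chromosome loci mapped for OA resistance. They were thus chosen by the same control and OA values that are listed here, which are given as a description only. Their position on the X chromosome also entered the choice, while the values of their neighbours on the assembly played no part in it.

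RNA was measured in whole adult females of *D. sechellia* strain 14021-0428.25, an island fly that feeds on a fruit rich in OA. Control flies were kept on plain food and OA flies on food with 0.7% OA, both for 24 hr. Each group had 3 poly(A) libraries, each from a homogenate of 10 flies aged 1 to 4 d by the sample labels, and the labels give no other difference between the groups. The table holds 1 FPKM value per gene and group (a fragment count corrected for transcript length and library depth), so no spread between libraries, no depth per gene and no test could be computed. In whole flies, fewer cells of a type and less RNA per cell cannot be told apart. Male accessory gland genes that the file names summed to 0.0442 FPKM in control and 0.438 FPKM in OA over 7 genes, 5 of them at 0 in both groups. Of the female genes, *Yp2* was at 11392 and 15455 FPKM, *Vm32E* at 984 and 718 FPKM and *nos* at 256 and 204 FPKM, so the first was higher in OA and the other two lower.

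These genes differ in what is known of them. *l(1)sc* encodes a basic helix-loop-helix transcription factor of the achaete-scute complex, whose members make cells of the ectoderm competent to become neural precursors. *TwdlY* belongs to the *Tweedle* family, which encodes secreted proteins of the insect cuticle, the chitin-based coat that a fly renews when it moults and that shapes the body. Both roles are known from *D. melanogaster*. The study lists *CG15740*, *CG1368* and *CG9672* without an annotated function.

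The proneural gene *l(1)sc* (scaffold 10, 165479 to 166299) had 0 FPKM in the control group against 2.05 FPKM with OA. *CG15740*, on scaffold 36 from 409585 to 412023, was listed at 0 FPKM and at 5.15 FPKM. The cuticle gene *TwdlY*, on scaffold 17 from 452971 to 453714, was listed at 0 FPKM and at 3.27 FPKM. These 3 genes had a value in OA flies only, and no fold can be given against a listed 0. *CG1368*, on scaffold 20 from 673220 to 674027, stood at 6.80 FPKM on control food and 26.7 FPKM on OA food, a ratio of 3.92. *CG9672*, on scaffold 17 from 422605 to 423690, was the only one of the 5 that was lower in OA, with 49.1 against 21.2 FPKM, a 2.32-fold lower value.

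**Figure D1:**
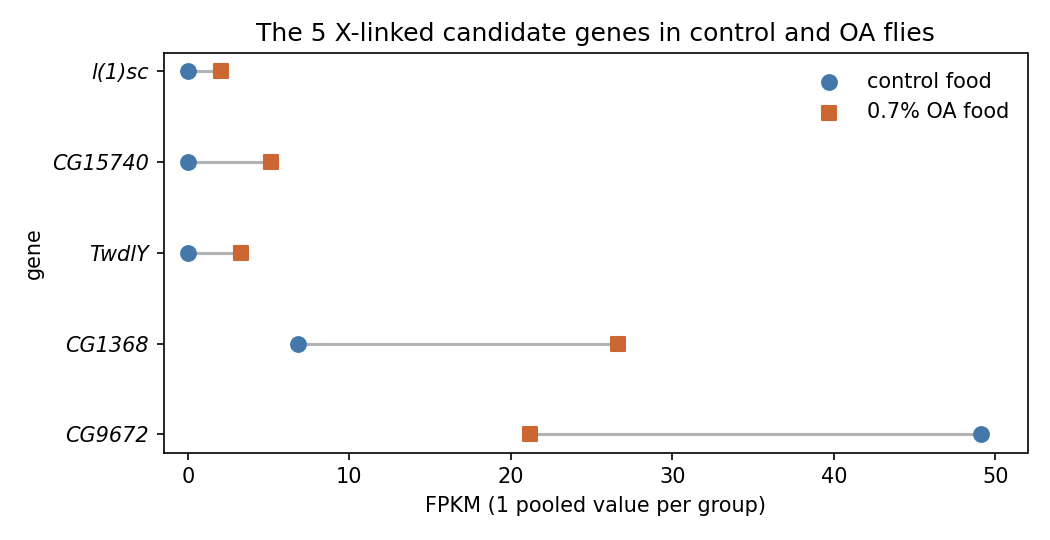
FPKM of the 5 candidate genes on the horizontal axis, 1 pooled value per group, with circles for control food and squares for food with 0.7% OA. *l(1)sc*, *CG15740* and *TwdlY* start from a listed 0 and end between 2.05 and 5.15 FPKM, *CG1368* moves up from 6.80 to 26.7 FPKM and *CG9672* moves down from 49.1 to 21.2 FPKM.

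The order of the levels differed between the groups. In control the order from the top was *CG9672*, then *CG1368*, with the other 3 at 0. In OA it was *CG1368*, *CG9672*, *CG15740*, *TwdlY* and *l(1)sc*, and without values per library it is unknown which of these neighbours differ beyond their spread. FPKM is scaled to length, so these levels can be set side by side. Even in OA the 3 genes listed at 0 in control stayed low, with 32.9% of protein-coding entries below *l(1)sc*, 36.3% below *TwdlY* and 40.0% below *CG15740*. *CG1368* moved from a level with 43.0% of entries below it to one with 63.5% below it. *CG9672* moved from 77.4% to 58.6%, still above the median of 12.9 FPKM in OA.

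Against all protein-coding entries, the candidate genes stood at the edges, as their choice by this contrast fixes. Of 12048 entries with at least 1 FPKM in 1 or both groups, 2.97% were higher in OA by at least 1 on the log2(FPKM + 1) scale and 2.48% were lower by as much. All 5 candidate genes passed this filter on low values, 4 lay past the upper bound and 1 past the lower. Changes on this scale were 1.61 for *l(1)sc*, 2.62 for *CG15740*, 2.10 for *TwdlY*, 1.83 for *CG1368* and -1.18 for *CG9672*. The median over the 12048 entries was 0.06, and it became 0.20 once the total FPKM of the groups was made equal. For the 3 genes listed at 0 the number is set by the constant of 1 FPKM that is added before the logarithm.

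**Figure D2:**
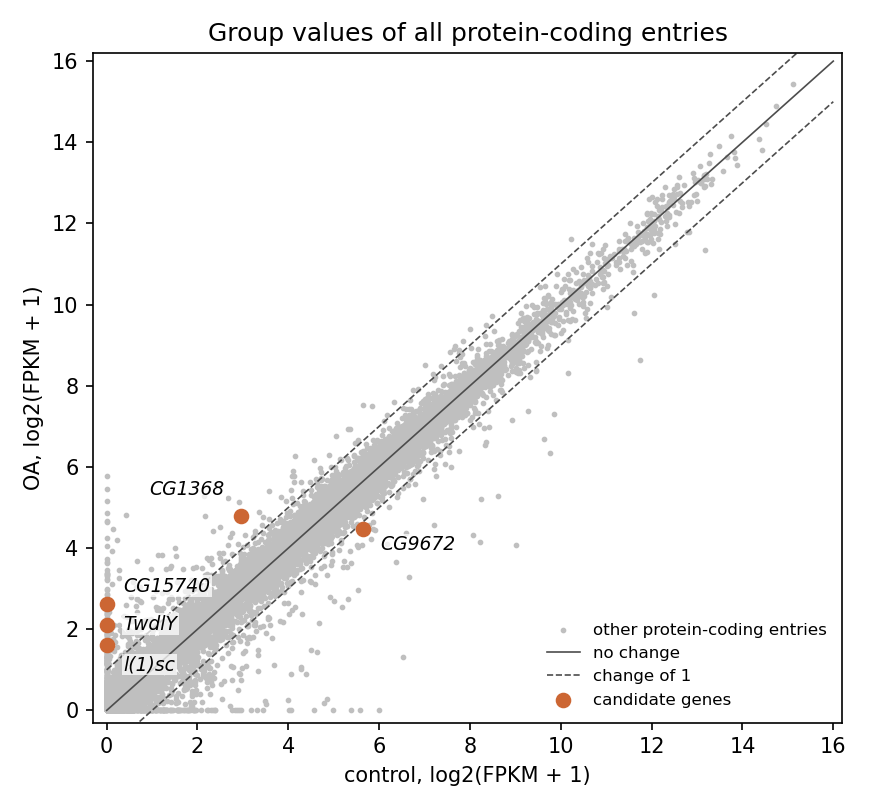
Control (horizontal) and OA (vertical) values of all protein-coding entries as log2(FPKM + 1), with the 5 candidate genes as large points, a solid line for no change and dashed lines for a change of 1. *l(1)sc*, *TwdlY* and *CG15740* lie on the left edge where control is listed at 0, *CG1368* lies above the upper dashed line and *CG9672* just below the lower one, at -1.18.

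A listed 0 against a value of a few FPKM was uncommon but not confined to these genes. The OA values of *l(1)sc*, *TwdlY* and *CG15740* span 2.05 to 5.15 FPKM, and 1163 protein-coding entries had an OA value in this range. In control, 707 of them lay from 2 to under 5 FPKM, 54 were listed at 0, and only 10 lay above 0 and under 0.25 FPKM. None lay above 0 and under 0.01 FPKM, a level that few values above 0 reach in entries of the size of these genes. That empty class therefore marks no gap. The reverse was rarer, since of 1145 entries with a control value in this range 22 were listed at 0 in OA and 7 lay above 0 and under 0.25 FPKM. Of the 54 entries at 0 in control, 26 had a span under 372 bases, against 95 of the 1163. This bound lies 2-fold under the 744 bases of *TwdlY*, the shortest candidate gene. No candidate gene could therefore fall under it, and the count does not set them apart from short entries.

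Listed zeros were common in genes of their size. Of entries with a span within 2-fold, 20.1% were listed at 0 in control for *l(1)sc*, 9.50% for *CG15740* and 21.3% for *TwdlY*. In OA these shares were 16.7%, 7.87% and 17.8%. Such shares also count entries at 0 in both groups, which is not the pattern of these genes. Over all sizes, 2180 of the 2894 protein-coding entries at 0 in control were at 0 in OA too. A control value of 0 was less common among entries in the OA range of these genes, at 54 of 1163. Among entries with a span within 2-fold of that of *l(1)sc*, which is 821 bases, the lowest 1% of the control values above 0 lay under 0.0635 FPKM. The same bound was 0.045 FPKM for entries of the size of *CG15740* (2439 bases) and 0.0665 FPKM for those of the size of *TwdlY* (744 bases). In OA these bounds were lower, at 0.0382, 0.0293 and 0.0409 FPKM. A listed 0 may mean no reads or an estimate that failed, and the part of either was not tested. For *l(1)sc*, *CG15740* and *TwdlY* the study's own test did return a result, with 0 FPKM in control. The ribosomal protein genes that the file names, *RpS18*, *RpS21* and *RpS3A*, were well above 0 in both groups, the lowest at 3723 FPKM.

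**Figure D3:**
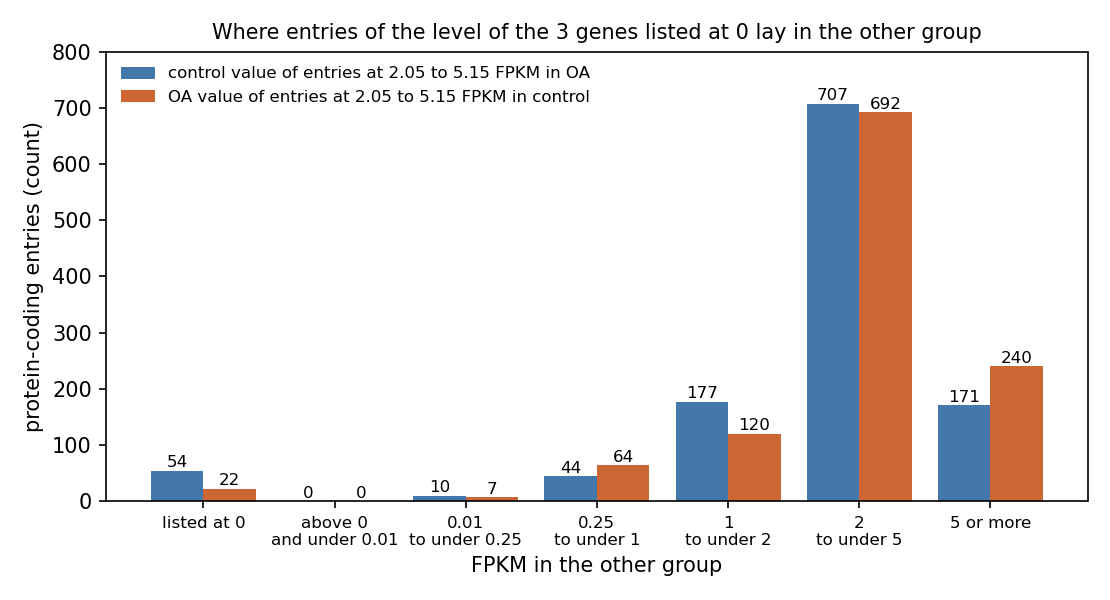
Number of protein-coding entries by their FPKM in the other group, for the 1163 entries at 2.05 to 5.15 FPKM in OA (left bars, control value) and the 1145 entries in that range in control (right bars, OA value). In control, 54 entries were listed at 0 and 10 lay from 0.01 to under 0.25 FPKM. The class under 0.01 FPKM is empty, at a level that few values above 0 reach.

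The surroundings of each candidate gene were then read from the table, as the 5 nearest protein-coding entries on either side on the same scaffold. The files do not pair most of these entries with a name, and directions along a scaffold are given by coordinate, since the file has no strand. No candidate gene overlaps another entry.

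*l(1)sc* had no close neighbour. The nearest entries lay 12563 bases before and 21635 bases after it. The entry before it, GM19062, went the other way, with 0.844 FPKM on control food and 0.0483 FPKM on OA food. The second entry before it, 38607 bases away, was listed at 0 in control and had 0.35 FPKM in OA. The fifth, at 3.21 and 6.50 FPKM, was also higher in OA. The entry after *l(1)sc* held 85.8 and 80.9 FPKM. The gene *y* (yellow), needed for dark pigment of the cuticle and a neighbour of the achaete-scute complex in *D. melanogaster* too, lay 48215 bases before *l(1)sc* and stood at 11.5 and 15.2 FPKM. Of the 10 neighbours, 5 had at least 1 FPKM in 1 or both groups, and their median change was 0.60, or 0.14 within 50000 bases. The latter rests only on *y*, with a change of 0.37, and the entry after *l(1)sc*, with -0.08. The largest of these changes was 1.13, in an entry 60623 bases after *l(1)sc* whose level went from 45.6 to 101 FPKM. Of the 17 proneural genes and partners looked up, 1 could be paired with an entry, *l(1)sc* itself, through the study's ortholog. Of 16 genes of the dopamine pathway, 0 could be paired. The rest of the complex could thus not be followed by name, and whether unnamed entries beside *l(1)sc* belong to it was not tested.

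*CG15740* had a close companion. The entry GM13041 begins 126 bases after its end, and it was likewise listed at 0 FPKM in control and had 3.04 FPKM in OA. The entry on the other side, 1614 bases away, was at 0.646 and 1.04 FPKM. The next entries beyond this pair were well expressed and moved little, with 36.5 and 36.2 FPKM on one side and 154 and 135 FPKM on the other. The median change of all 10 neighbours was -0.03, with a range from -0.53 to 2.02, the upper end being GM13041. Whether 1 transcript spans both entries was not tested.

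The entries directly before and after *TwdlY* were also higher in OA, at lower levels. The entry 2635 bases before it had 0 FPKM on control food and 1.578 FPKM on OA food. The entry 2323 bases after it had 0.158 and 0.479 FPKM. The next ones out differed less between the groups, at 22.6 and 24.0 FPKM before and 21.0 and 24.8 FPKM after. Of the 7 neighbours with at least 1 FPKM, 5 were higher and 2 lower in OA, while 41.5% of all such protein-coding entries were lower. The median change of these 7 was 0.08, and it was -0.42 within 50000 bases. Of the 27 *Tweedle* names looked up, the file and the study's main text pair only *TwdlY* with an entry here. The study also reports *TwdlG*, *TwdlL*, *TwdlM* and *TwdlV* as significantly higher in OA, without naming their entries there. Reads shared by members of this family would make the value of a single member uncertain. The file names none of the other cuticle protein genes looked up.

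*CG1368* lay in a stretch of entries listed at 0. Of its 10 neighbours, 8 were listed at 0 in both groups, including all 5 before it and the one that begins 1400 bases after it. The only neighbour with at least 1 FPKM was GM17656, 6762 bases after it, which went from 0.04 to 4.39 FPKM. The entry after that went the other way, from 0.272 to 0.0658 FPKM. The first well-expressed entry on that side, with 11.4 and 9.85 FPKM, was the sixth one out.

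*CG9672* lay among entries that were mostly lower in OA. The 4 entries before it, within 6557 bases, were far more abundant than *CG9672* itself, from 145 to 942 FPKM in control and from 108 to 611 FPKM in OA. Their changes lay between -0.63 and -0.42, all milder than the -1.18 of *CG9672*, and the entry next to it, GM13457, held 942 and 611 FPKM. Of all protein-coding entries with at least 1 FPKM, 9.77% had a change of -0.42 or lower. The 2 entries farther out moved less, by -0.13 and -0.06. After *CG9672*, 3 of 5 entries were lower in OA, among them one at 51.2 and 33.3 FPKM. The median change of the 8 neighbours with at least 1 FPKM was -0.43, but -0.10 over the 10 nearest on each side. The file names none of the trypsin-like proteases looked up.

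*CG9672* and *TwdlY*, which moved in opposite directions, are 29280 bases apart with 6 entries between them, and 4 of these count as neighbours of both. From *CG9672* onward these 6 went from 4.35 to 3.34, 0.158 to 0.457, 51.2 to 33.3, 0.622 to 0.508, 22.6 to 24.0 and 0 to 1.578 FPKM. Of the 6, 3 were lower and 3 higher in OA, with the directions interspersed.

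**Figure D4:**
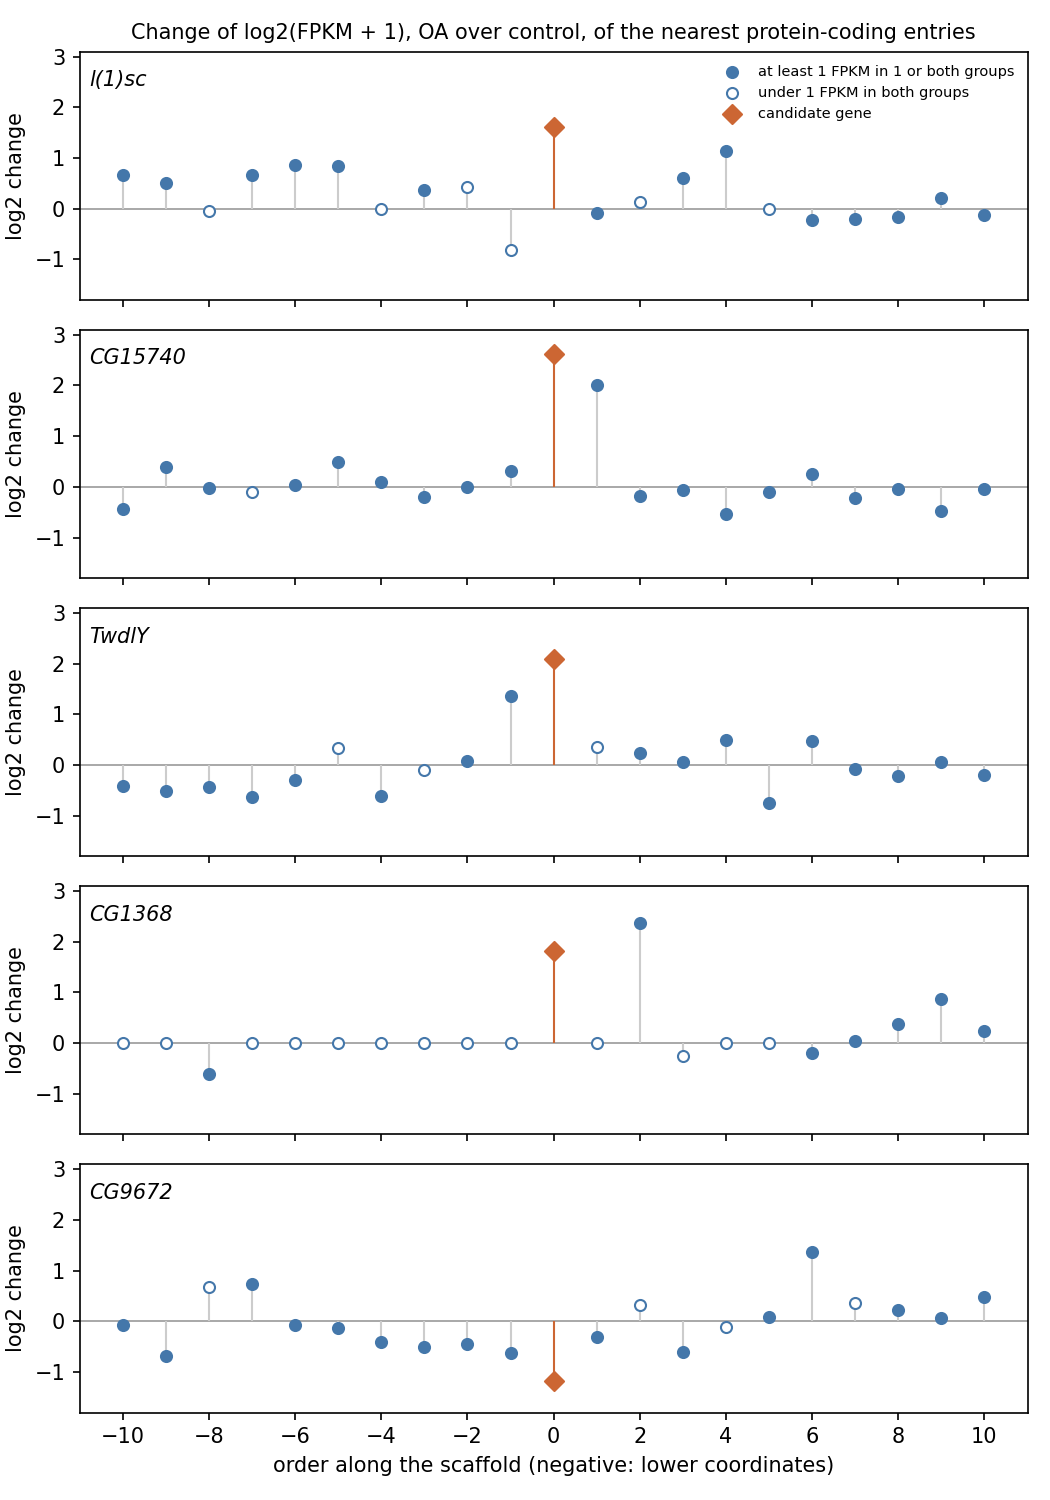
Change of log2(FPKM + 1) from control to OA (vertical) of the 10 nearest protein-coding entries on each side of each candidate gene, in their order along the scaffold (horizontal), other candidate genes left out. Filled points had at least 1 FPKM in 1 or both groups, open points did not, and the diamond is the candidate gene. *CG15740* has an adjacent entry at 2.02, *TwdlY* one at 1.37, *CG1368* one at 2.37 in the second place, and *CG9672* follows 4 entries between -0.63 and -0.42.

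Across whole scaffolds the candidate genes were at or near the ends, which their choice by this contrast fixes here too. The 4 scaffolds hold 787 protein-coding entries, of which 621 had at least 1 FPKM in 1 or both groups. *CG15740* had the highest change of 67 such entries on scaffold 36 and *TwdlY* the highest of 166 on scaffold 17. *CG1368* ranked second of 83 on scaffold 20, behind GM17656, and *l(1)sc* had rank 4 of 305 on scaffold 10. *CG9672* had the third lowest change on scaffold 17. The scaffolds as wholes moved little, with median changes of 0.12 on scaffold 10, 0.10 on scaffold 36, 0.03 on scaffold 20 and 0.06 on scaffold 17. Without the candidate genes, 15 of 616 entries, or 2.44%, lay past the upper bound and 6, or 0.974%, past the lower, against 2.94% and 2.47% of all protein-coding entries without the candidate genes. Of those 15 entries 11 were listed at 0 in control, against 158 of 354 over all scaffolds.

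**Figure D5:**
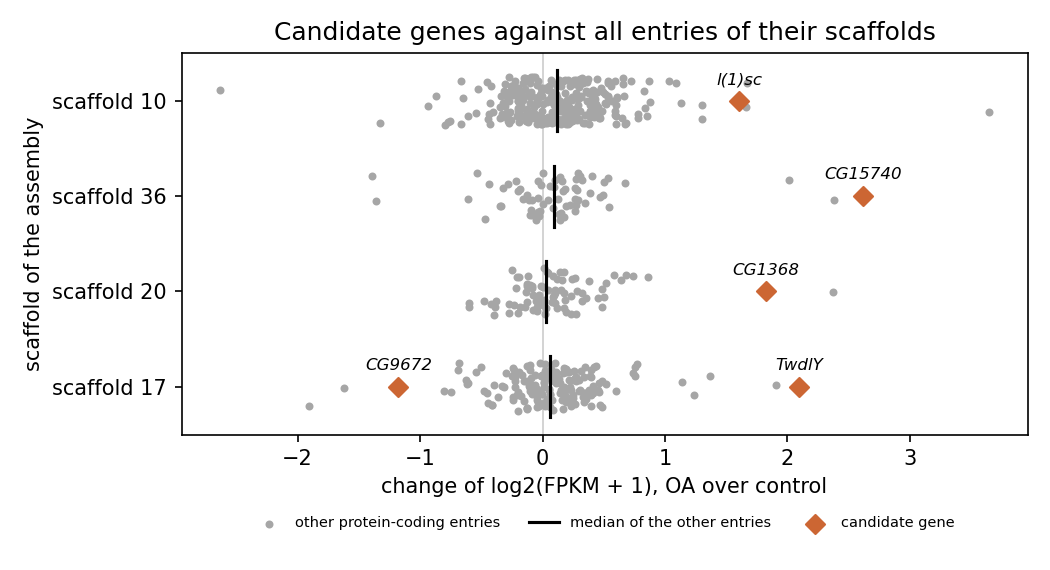
Change of log2(FPKM + 1) from control to OA (horizontal) of every protein-coding entry with at least 1 FPKM in 1 or both groups on the 4 scaffolds (rows, points spread vertically for sight only), with the median of the other entries as a bar and the candidate genes as diamonds. The bulk of each scaffold lies near 0, while the candidate genes, chosen by this contrast, lie at 1.61 or above, or at -1.18 for *CG9672*.

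Entries elsewhere in the genome with nearly the same pair of group values were sought by the distance in log2(FPKM + 1) over the 2 groups, a measure that rests on only 2 values per gene. Among the 3 nearest to *CG15740* was *Osi19* (GM10883), with 0 and 5.02 FPKM. All 3 nearest to *l(1)sc* and all 3 nearest to *TwdlY* were listed at 0 in control, with OA values of 2.02 to 2.07 FPKM and 3.25 to 3.33 FPKM. Such closeness follows from the search, which used these same values. The nearest to *CG9672* stood at 48.0 and 21.3 FPKM. *CG1368* had the least close match, with distances of 0.11 to 0.40, against 0.16 or less for each of the other candidate genes.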

How the data were processed

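The sample labels place 3 libraries on control food and 3 on food with 0.7% OA. The study's methods state that single-end reads were aligned with Bowtie2 to the Ensembl assembly GCA_000005215.1 and quantified with Cuffdiff on annotation release 34. The authors deposited 1 FPKM value per gene and group, after geometric normalization, length correction and bias correction. These values were not whole multiples of 1 read, so the reads behind each gene are unknown. The study does report mapped reads per library, and the libraries with the most and with the fewest were both in the OA group. What depth adds to the listed zeros was not tested. The same table holds the authors' fold changes, test statistics, p-values and q-values, which were not used.

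Entries were sorted into protein-coding and other genes by name, and entries named as histones were placed with the other genes. Changes were log2 of (OA + 1) over (control + 1) FPKM, an understatement for low genes, and the filter kept entries with at least 1 FPKM in 1 or both groups. A change of at least 1 counted as past the fold, without a test. Neighbours were the 5 nearest protein-coding entries on each side by start. Positions are printed counted from 1. The name table for another assembly matched 0 identifiers, so unpaired identifiers are described by position and at most 2 in each direction are printed. The named genes were the 5 candidates, named neighbours and list genes, and the 3 entries nearest in level. Sequences were not used here. The members and lists were chosen with earlier results of these data known. Pseudocounts, scalings, filters, bounds and neighbour windows were varied. The steps were tested on simulated data. Python 3.11.15, NumPy 2.4.6, pandas 2.3.3 and Matplotlib 3.10.9 were used.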

Additional observations from a re-analysis of the deposited data

How the results depend on the processing

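No paired analysis was possible because each group has only 1 pooled value, and for the same reason no fit without a replicate was run. Moves under 0.1 on the log2 scale were taken as small. In the order *l(1)sc*, *CG15740*, *TwdlY*, *CG1368*, the change on the log2 scale was 4.42, 5.72, 5.08 and 1.95 with 0.1 FPKM added, 0.50, 1.02, 0.73 and 1.42 with 5 FPKM added, and 1.71, 2.75, 2.21 and 1.97 at equal totals over all entries. With 0.5 FPKM added it was 2.35, 3.50 and 2.92 for the first 3. *CG9672* was at -1.05 with 5 FPKM added and -1.04 at equal totals. With 5 FPKM added *l(1)sc* and *TwdlY* no longer passed the bound of 1, which the construction of the scale explains. Equal totals over protein-coding entries and centring on the median moved none of the 5 by 0.1 or more. All 5 directions held.

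The 358 entries past the upper bound became 813 at a bound of 1.5-fold, 154 at 3-fold and 111 with 5 FPKM added. The 299 past the lower bound became 694, 121 and 118. With 0.1 FPKM added the upper and lower counts were 489 and 406. At equal totals over all entries they were 427 and 262, and centred on the median 327 and 324. The local median of *l(1)sc* was 0.44 with 10 neighbours on each side, 0.14 within 50000 bases and 0.25 without the filter. For *CG1368*, where 1 neighbour set a median of 2.37, it was 0.24 with 10 on each side and 0.24 within 50000 bases, 0 without the filter and 5.004 with 0.1 FPKM added. For *CG9672* it was -0.10 with 10 on each side and -0.21 within 50000 bases, and for *TwdlY* -0.20 and -0.42. The 54 entries at 0 in control became 27 when only spans within 2-fold of those of the 3 genes counted, which leaves out shorter entries. The cause of the other shifts was not tested.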

Other observations

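The neighbours of *CG15740* and *TwdlY* led to a count over the whole table, chosen after their values were seen. Among the 54 protein-coding entries listed at 0 in control and at 2.05 to 5.15 FPKM in OA, 16, or 29.6%, had a directly adjacent entry that was also listed at 0 in control and had at least 1 FPKM in OA. *CG15740* and *TwdlY*, which prompted the count, are among the 16 and *l(1)sc* is not. The study also lists clustered *Osiris* genes at 0 in control, and how many of the 16 belong to such gene clusters was not counted. Of the 1109 entries in the same OA range that were above 0 in control, 27, or 2.43%, had such an adjacent entry. In the other direction, 1 of 22 entries listed at 0 in OA had a matching neighbour, against 10 of 1123 entries above 0. Adjacent entries are not independent of each other, and no test was run on these shares.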
